A study of Mus musculus with 55 samples.

Results

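State L was 1 of 24 chromatin states that the authors' segmentation assigned to bins of 200 bp on the mouse autosomes in wild-type islets, and their annotation named it bivalent with high H3K4me3. All 26349 segments with the letter L were taken, of 1653154 segments in all, and 3021 of 28877 annotated genes (protein-coding, lincRNA and antisense) had their start site in one of them. RNA was measured by RNA-seq of whole pancreatic islets from male C57B6/J mice. Wild-type mice were sampled at 8 weeks (replicates 1, 3 and 4) and 25 weeks (replicates 2, 3 and 4), and Eed -/- mice, here βEedKO, at 8 weeks (replicates 1, 4 and 5) and 25 weeks (replicates 2 and 3). Heterozygous mice were sampled at 8 weeks (replicates 1, 2 and 3) and 25 weeks (replicates 1 and 2). In βEedKO mice both alleles of Eed were floxed and Cre was driven by the insulin promoter (RIP-cre), so that deletion was aimed at β cells while the libraries held RNA of all islet cells; the sources used here do not say whether wild-type mice carried Cre. A library held RNA of 1 or 2 animals, and at 25 weeks each βEedKO library pooled at least 4, per the study's methods.

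A bivalent region carries H3K4me3, the mark that Trithorax-type methyltransferases place at promoters, together with H3K27me3, the mark of Polycomb repressive complex 2 (PRC2). Eed is the PRC2 subunit that binds H3K27me3 and is needed for the complex to methylate. In embryonic and adult tissues bivalent promoters are known for CpG-rich genes of other lineages, such as developmental transcription factors and signalling molecules, which are held at low transcription.

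The stretches of L just upstream of genes that turn up in the results are shown first, since CpG content was among the features that separated kinds of L segment. Each is 200 bases long on GRCm38, ends at the base before the annotated start, lies inside the L segment and outside exons, and is written along the gene's strand with every CG in capitals (CG reads the same on both strands). Zic2 (chr14:122475235-122475434, plus strand, 17 CG), Lhx2 (chr2:38339081-38339280, plus strand, 24 CG), En2 (chr5:28165494-28165693, plus strand, 19 CG) and Fam163b (chr2:27142492-27142691, minus strand, 20 CG) were among the 10 largest rises in βEedKO islets at 25 weeks, and each of these segments lay between segments of state M, the bivalent state with high H3K27me3. Ccnd2 (chr6:127152194-127152393, minus strand, 8 CG) and Rsad2 (chr12:26456453-26456652, minus strand, 4 CG) were among the 5 L genes with the highest wild-type level at 8 weeks. Ccnd2 had M upstream, on the side shown, and state A, an active start-site state, downstream. Rsad2 had the active state D on both sides.
Zic2: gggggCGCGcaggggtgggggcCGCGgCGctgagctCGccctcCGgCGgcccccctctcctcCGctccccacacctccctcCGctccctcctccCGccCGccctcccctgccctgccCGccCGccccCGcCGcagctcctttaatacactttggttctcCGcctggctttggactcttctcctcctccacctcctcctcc
Lhx2: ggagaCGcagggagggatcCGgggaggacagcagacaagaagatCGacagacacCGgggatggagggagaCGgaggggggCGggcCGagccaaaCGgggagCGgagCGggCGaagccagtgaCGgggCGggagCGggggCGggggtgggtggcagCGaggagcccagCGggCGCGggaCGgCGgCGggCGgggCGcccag
En2: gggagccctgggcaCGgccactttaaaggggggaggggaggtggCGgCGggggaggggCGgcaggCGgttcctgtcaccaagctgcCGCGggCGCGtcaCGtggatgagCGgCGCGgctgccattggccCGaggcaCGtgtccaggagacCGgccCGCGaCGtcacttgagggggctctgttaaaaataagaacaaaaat
Fam163b: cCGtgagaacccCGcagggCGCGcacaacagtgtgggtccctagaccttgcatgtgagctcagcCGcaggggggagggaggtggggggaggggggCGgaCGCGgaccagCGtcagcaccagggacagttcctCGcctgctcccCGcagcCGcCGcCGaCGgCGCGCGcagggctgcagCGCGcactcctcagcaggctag
Ccnd2: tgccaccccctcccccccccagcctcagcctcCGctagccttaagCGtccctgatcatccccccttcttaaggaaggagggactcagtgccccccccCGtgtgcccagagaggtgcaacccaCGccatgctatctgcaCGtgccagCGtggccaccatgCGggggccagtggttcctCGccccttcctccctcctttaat
Rsad2: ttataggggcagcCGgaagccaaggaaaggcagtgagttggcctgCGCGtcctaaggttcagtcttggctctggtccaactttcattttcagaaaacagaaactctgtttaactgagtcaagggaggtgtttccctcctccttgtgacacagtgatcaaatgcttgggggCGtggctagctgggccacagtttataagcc

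State L formed short segments near genes. It made up 1.59% of segments and 13302200 bp, or 0.541% of the segmented length. The median width was 400 bp (quartiles 200 and 600 bp, 90th percentile 1000 bp), and 33.7% of L segments were a single bin. State K, another bivalent state, had a median width of 600 bp, state M of 1200 bp and state N, a Polycomb-repressed state, of 2600 bp. Only 312 L segments reached 2 kb. The widest that held a gene start spanned 7000 bp (chr11:24075601-24082600) at Bcl11a, a zinc-finger transcription factor, and the next 5000 bp (chr1:72870001-72875000) at Igfbp5, an IGF-binding protein. L segments were densest on chromosome 11 (16.5 per Mb) and sparsest on chromosome 14 (7.89 per Mb).

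Most sides of L segments touched active chromatin. Of the sides, 63.0% were active states (A to J), 36.6% bivalent or Polycomb states (K, M and N to R) and 0.357% others, while these classes made up 21.0%, 52.1% and 26.9% of all segments other than L. State B, an active start-site state, took 32.3% of sides, state D, a proximal regulatory or elongation state, 24.1%, K 24.1% and M 11.8%. The commonest arrangement, in 9558 segments (36.3%), was B on one side and D on the other, and 4814 segments (18.3%) lay between B and K. By both sides together, 12967 segments (49.2%) lay between active states, 7189 (27.3%) had an active state on one side and a bivalent or Polycomb state on the other, and 6012 (22.8%) lay between bivalent or Polycomb states.

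**Figure D1:**
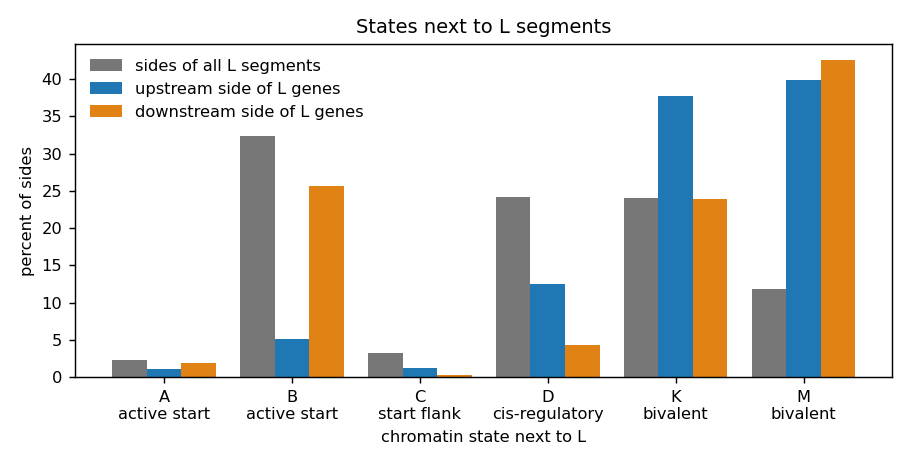
Percent of sides that touch states A, B, C, D, K and M, for the sides of all L segments and for the upstream and the downstream side of L genes. States B, D, K and M take 32.3%, 24.1%, 24.1% and 11.8% of the sides of all L segments.

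Gene starts were most frequent in L segments between bivalent or Polycomb states. A start lay in 28.7% of these, in 9.5% of the mixed ones and in 3.36% of those between active states, although 82.3% of the last were within 1 kb of the start of some transcript. Over all L segments, 2866 (10.9%) held a gene start, against 62.7% of A, 17.0% of B, 8.84% of M, 3.91% of N and 1.43% of K. Segments between bivalent or Polycomb states were also wider (median 600 bp, against 400 bp in the other classes) and richer in CpG (median 4 per 100 bp, against 1.75 between active states). Over all segments the median CpG density was 2.25 per 100 bp in L, 1 in K, 1.5 in M, 0.853 in N and 9 in A. L thus lay above K and M and below A in CpG density. Farther from genes, 10.6% of L segments were over 10 kb from any transcript start. The largest cluster lay at chr8:123537201-123636000, where 52 L segments fell in a run of states K to O 98800 bp long. No protein-coding, lincRNA or antisense gene started in that run, and other gene types are not covered by this statement.

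Among the 3021 L genes, 2572 were protein-coding, 219 lincRNA and 230 antisense. Their own sides differed from those of all L segments: 1850 (61.2%) lay between bivalent or Polycomb states, 709 (23.5%) had 1 of each and 442 (14.6%) lay between active states. Upstream of the gene the neighbour was M for 39.9% and K for 37.7%, and downstream it was M for 42.6%, B for 25.7% and K for 23.9%. In the 200 bases upstream of the start, L genes held a median of 9 CG, against 5 over all genes, 6 in M, 3 in K, 2 in N and 16 in A. At least 1 CG was present there in 98.7% of L genes and in 89.3% of all genes. Within L the median was 11 for genes between bivalent or Polycomb states, 8 with 1 of each and 6 between active states.

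In wild-type islets at 8 weeks, L genes were expressed at levels between those of active and silent states. Levels are CPM (counts scaled to the effective library size, not per length), averaged over the 3 libraries. The median was 2.05 CPM over the 2906 L genes counted, with 61.4% at 1 CPM or more, against 34.9 CPM for genes starting in A, 12.9 in B, 0.272 in K, 0.0970 in M and 0 in N. L genes between active states had a median of 9.33 CPM, those with 1 of each 5.68 and those between bivalent or Polycomb states 1.06. Within these classes the pairs of neighbours differed, also by their order along the gene: with K upstream and B downstream the median was 9.32 CPM (365 genes), and with B upstream and K downstream 1.84 (63 genes). It was 1.70 CPM with B upstream and D downstream (26 genes), 1.62 with K on both sides (433 genes) and 0.827 with M on both sides (1002 genes). The bivalent name could be set against these neighbours and RNA levels only, since ChIP-seq signal was not used here; by its RNA, L held both silent and transcribed genes.

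The 5 L genes with the highest mean in wild-type islets at 8 weeks show how unlike its members were. Ccnd2, cyclin D2, which drives the cell cycle in β cells, read 649, 794 and 979 CPM in replicates 1, 3 and 4. Resp18, a secretory granule protein of endocrine cells, read 733, 1012 and 896 CPM. Rap1gap2, a GTPase-activating protein of Rap1, read 487, 634 and 824 CPM. These 3 were steadily high, whereas the last 2 were interferon-induced genes that were high in some libraries. Cxcl10, a chemokine, read 1.71, 1005 and 1041 CPM in wild type and 0.807, 1861 and 2280 CPM in βEedKO replicates 1, 4 and 5. Rsad2, the antiviral enzyme viperin, read 15.7, 979 and 1166 CPM in wild type and 10.2, 1068 and 956 CPM in βEedKO. Both were low in the libraries numbered 1 of both genotypes and high in the other 4 libraries of 8 weeks.

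Library totals ranged from 4645393 to 22925359 counts, the lowest being wild-type replicate 2 at 25 weeks. Eed itself read 23.9 to 33.1 CPM in 8-week wild type against 13.4 to 14.9 in βEedKO, and 19.3 to 28.3 against 14.2 to 15.6 at the later age; the ranges did not overlap, but neither difference passed the test (adjusted p = 0.088 and 0.14, edgeR quasi-likelihood test with Benjamini-Hochberg adjustment). The summed level of 9 β cell markers was 123453 to 220585 CPM in wild type and 13973 to 17356 in βEedKO at 25 weeks, with 9 of 9 markers lower in both βEedKO libraries, while at 8 weeks the ranges overlapped. At 25 weeks 9 of 10 fibroblast and stellate markers were higher in both βEedKO libraries than in every wild-type library (summed 490 to 656 CPM, against 202 to 336). So were 6 of 11 duct markers, with 1 lower (1115 to 1310, against 583 to 883), and 4 of 10 macrophage and leukocyte markers (144 to 400, against 71.9 to 140). Of the α, δ and PP cell markers 3 of 7 were higher (15895 to 17460, against 10437 to 12662). Of all genes tested, 24.7% lay above wild type in this way at 25 weeks and 15.9% below. No marker of the fibroblast or macrophage lists was at 0 in a wild-type or βEedKO library of 25 weeks. Acinar markers summed to 412148 CPM in βEedKO replicate 2 and 13139 in replicate 3, against 31535 to 227932 in wild type. Endothelial markers summed to 452 to 554 CPM against 454 to 510, with 4 of 10 higher and 2 lower, and Schwann and neural markers to 111 to 147 against 96.5 to 138, with 3 of 9 higher and 1 lower; 1 duct and 1 Schwann marker were at 0 in a wild-type library. The part of these shifts in the results for L genes was not tested, and fewer cells of a type and less RNA per cell cannot be told apart in bulk islets.

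At 25 weeks L genes rose far more often than they fell in βEedKO islets. Of 2430 L genes that passed the filter on low counts, 344 (14.2%) were called higher and 40 (1.65%) lower, where 4.58% of all 18685 genes tested were called higher, 2.02% lower and 6.6% in either direction (edgeR quasi-likelihood test, adjusted p under 0.05 after Benjamini-Hochberg adjustment over all genes tested). The median log2 fold change was 0.94 over L genes tested and 0.03 over all genes tested. A further 476 L genes were counted but did not pass the filter, 43 of the counted had no read in any library, and 115 were not in the count table; since a gene read only in βEedKO islets could pass through that group, the counts describe the genes tested and not all L genes. L genes made up 42.7% of the 805 genes with a state that were called higher, 11.5% of the 349 called lower and 15.1% of those tested. The rise counted 236 of 869 genes tested that start in M, 39 of 508 in N, 18 of 418 in K and 28 of 6318 in A. Single libraries moved the count: it was 165 without βEedKO replicate 2, 110 without βEedKO replicate 3, 140 without wild-type replicate 3 and 155 without wild-type replicate 4. The count of falls was 6, 12, 15 and 16 without the same libraries in turn.

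The share of L genes that rose varied with the sides of the segment. Between bivalent or Polycomb states 299 of 1463 genes tested rose and 6 fell, with a median log2 fold change of 1.49. With 1 of each, 36 of 599 rose and 20 fell (median 0.30), and between active states 7 of 359 rose and 14 fell (median −0.06). Among the 344 that rose, 234 (68.0%) had M upstream and 255 (74.1%) had M downstream, whereas of the 40 that fell 18 had K and 14 had D upstream, and 23 had B downstream. With M upstream, 234 of 973 genes tested rose. By the state that covered most of the gene body, 291 of 1314 L genes with a bivalent or Polycomb body rose and 3 fell, and 30 of 839 with an active body rose and 30 fell. These are counts beside the shares of all genes tested, with no test between the classes.

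**Figure D2:**
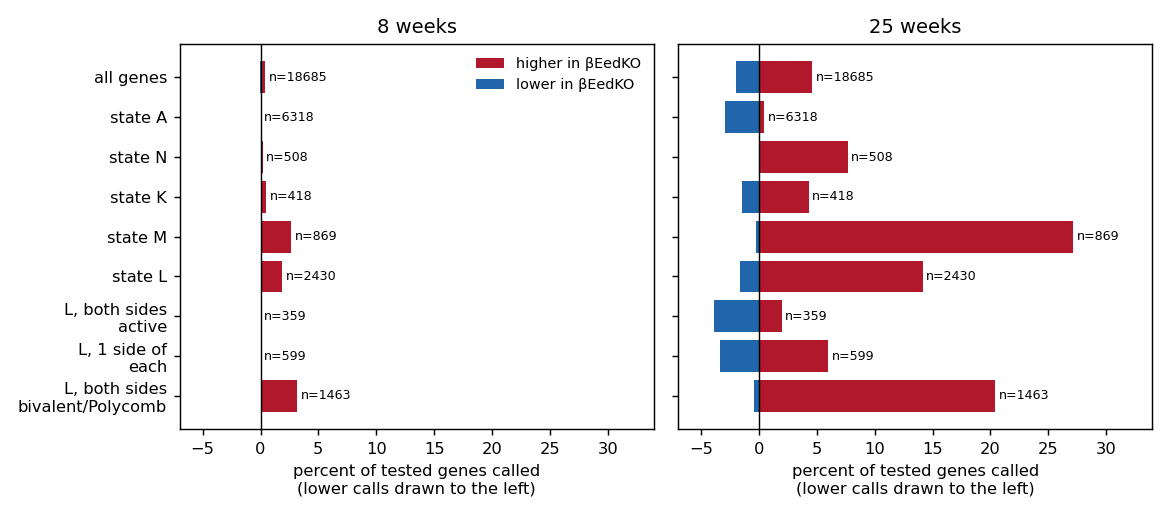
Percent of genes tested that were called higher or lower in βEedKO than in wild-type islets at 25 and 8 weeks, for all genes, for start-site states and for L genes by the states on both sides. At 25 weeks 299 of 1463 L genes between bivalent or Polycomb states were called higher and 7 of 359 between active states.

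**Figure D3:**
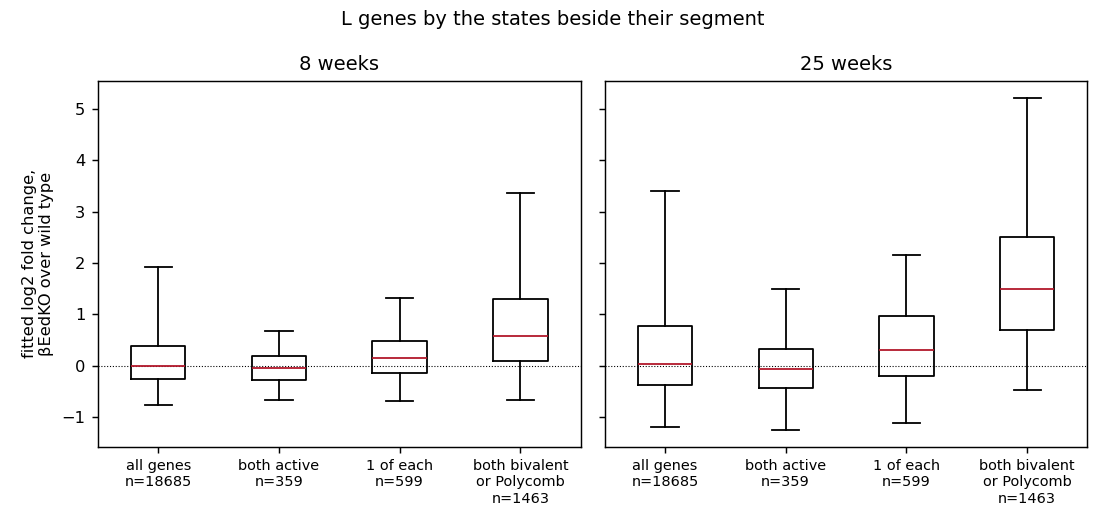
Log2 fold changes of βEedKO against wild type by group of genes; boxes are quartiles, the line is the median and whiskers run from the 5th to the 95th percentile of genes. The median of L genes between bivalent or Polycomb states is 1.49 at 25 weeks and 0.58 at 8 weeks, against 0.03 and 0.00 over all genes tested.

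The share of L genes that rose was larger in wider segments: 46 of 694 (6.63%) at 200 or 400 bp, 13.6% at 600 or 800 bp, 18% at 1000 to 1400 bp and 21.8% at 1600 bp or more. The CG count upstream was a median of 12 for L genes that rose, 7 for those that fell and 9 over all L genes tested. Of the 6 genes at the 5 widest, Gm12063 was not tested and none of the others was called at 25 weeks (Igfbp5 1.71, Cdk6 1.26, Bcl11a 0.66, Adamts1 0.35 and Sim1 −1.04 as log2 fold changes, adjusted p from 0.092 to 0.86 by edgeR with Benjamini-Hochberg adjustment). Igfbp5 passed the threshold with DESeq2, with the replicate block, with 25-week libraries alone, without the filter and with all 6 groups in the fit.

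The 10 largest rises were genes with no read in any of the 3 wild-type libraries of 25 weeks, all between M and M, and 6 of them encode transcription factors of other tissues. Their folds are given as lower bounds against a floor of 3 counts over the wild-type group, which covers counting error only. Zic2, a zinc-finger factor of neural tube and forebrain, read 12.6 and 16.3 CPM in βEedKO replicates 2 and 3, at least 154-fold higher. Lhx2, a LIM-homeobox factor of eye and forebrain, read 9.97 and 18.2 CPM, at least 158-fold higher. En2, the midbrain and hindbrain homeobox factor, read 12.8 and 12.7 CPM, at least 131-fold higher. For these 3 genes the adjusted p was 0.0086, 0.0034 and 0.0045 (edgeR, Benjamini-Hochberg). The naming rule required a call and no overlap with wild type, and ranking by log2 fold change favours genes at 0 in wild type.

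Hoxa13, the homeobox factor of distal limb and hindgut, read 11.9 and 13 CPM, at least 130-fold higher. Pax2, the paired-box factor of kidney and optic stalk, read 10.5 and 11.8 CPM, at least 117-fold higher. Pou4f2, a POU-domain factor of retinal ganglion cells, read 13.5 and 8.64 CPM, at least 106-fold higher. The remaining 4 were not transcription factors. Lin28b, the RNA-binding protein that blocks let-7 maturation in embryonic cells, read 8.14 and 6.22 CPM, at least 70.7-fold higher. Slc17a7, the vesicular glutamate transporter VGLUT1, read 5.10 and 7.39 CPM, at least 67.7-fold higher. Fam163b and the transmembrane protein Tmem132e were at least 75.3-fold and 58.2-fold higher. All 10 were called, as the naming rule required, with adjusted p from 0.0034 to 0.022 (edgeR, Benjamini-Hochberg). Genes without a wild-type read could pass the filter through the βEedKO group, so these p-values are not separate support. With the replicate block 3 of the 10 were not called: Lin28b (adjusted p = 0.05005), Fam163b (0.054) and Slc17a7 (0.054).

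**Figure D4:**
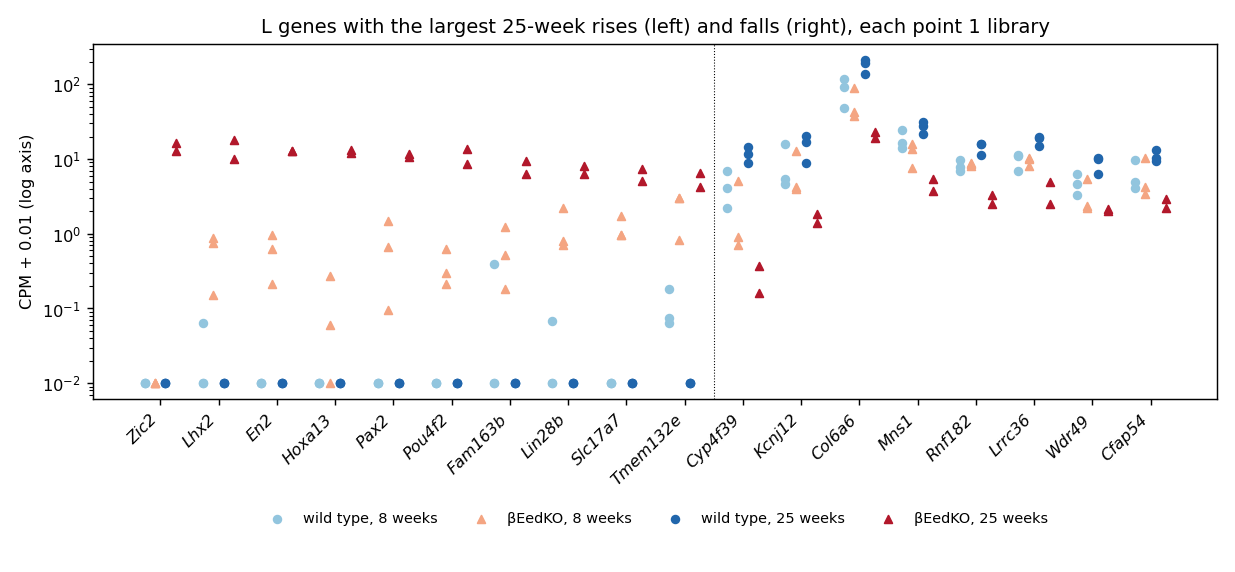
CPM plus 0.01 on a log axis in each wild-type and βEedKO library for the L genes with the largest rises and falls at 25 weeks. Each point is a library, coloured by genotype and age. Zic2 sits at 12.6 and 16.3 CPM in βEedKO at 25 weeks and at the floor elsewhere, and Col6a6 at 19.3 and 22.7 CPM against 139 to 210 in wild type.

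The 8 largest falls lay on other sides: none lay between M and M, and 4 had K upstream with B or C downstream. Cyp4f39, a cytochrome P450 that hydroxylates very long-chain fatty acids, read 8.72, 14.4 and 11.8 CPM in wild type and 0.152 and 0.363 in βEedKO (log2 −5.44 ± 1.03 SE, adjusted p = 0.012, edgeR with Benjamini-Hochberg). Col6a6, a collagen VI chain, read 139, 210 and 190 CPM against 19.3 and 22.7 (log2 −3.15 ± 0.48). Kcnj12, the inward rectifier potassium channel Kir2.2, read 8.94, 20 and 16.9 CPM against 1.83 and 1.37 (log2 −3.32 ± 0.75). In all 3 the groups stood far apart. Mns1, a structural protein of motile cilia, read 31, 28 and 21.5 CPM against 3.73 and 5.45 (log2 −2.59 ± 0.39). Rnf182, a brain E3 ubiquitin ligase, read 11.3, 15.9 and 15.8 CPM against 2.51 and 3.27 (log2 −2.36 ± 0.29). Lrrc36, Wdr49 and Cfap54, the last a protein of the ciliary central apparatus, fell by 2.32, 2.17 and 2.15 on the log2 scale. With the replicate block 1 of the 8, Wdr49, was not called (adjusted p = 0.063, edgeR with Benjamini-Hochberg). The falls were smaller than the rises and their number depended more on scaling: with library sizes alone, where the median over all genes was 0.27, 7 L genes were called lower and 327 higher.

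Transcription factor genes were counted over a union of lists first. In 9 lists of transcription factor families, 71 of 333 genes start in L, 63 were tested, and 32 (50.8%) rose and 2 fell at 25 weeks. Beside them, 14.2% of L genes tested, 20.4% of L genes between bivalent or Polycomb states and 4.58% of all genes tested were called higher. Of the forkhead genes 5 of 7 tested rose, among them Foxf1, a factor of gut and lung mesenchyme (1.09, 1.5 and 1.86 CPM in wild type, 18.1 and 39.8 in βEedKO). Of the LIM, Dlx, Irx, Nkx and other homeobox genes 14 of 26 rose and 2 fell, with Barx1, a factor of stomach mesenchyme, at 0, 0 and 0.155 CPM in wild type and 16.4 and 22 in βEedKO. All 3 tested of the Gata and Zic list rose, as did all 3 of the paired-box, sine oculis and eyes-absent list (Pax2, Six2 and Eya2). Six2, which keeps nephron progenitors undifferentiated, went from 0, 0.0752 and 0.309 CPM to 10.8 and 25.3. Of the basic helix-loop-helix genes 4 of 12 rose, with Twist1, a factor of mesenchyme, at 0.218, 0 and 0.387 CPM in wild type and 12.8 and 19.9 in βEedKO. Sox genes counted 1 of 6 (Sox9), T-box genes 1 of 2 (Tbx3, not called with the replicate block), Hox genes 1 of 1 (Hoxa13), and the Tfap2, Klf and Egr list 0 of 3 (0 at an unadjusted p under 0.05 by edgeR, and 0 by DESeq2). The study picked 6 ectopic transcription factors by H3K27me3 in mouse and human islets and by a rise in both βEedKO and human type 2 diabetic islets. Of these, 2 start in L, Barx1 and Twist1, and both rose. This is not independent evidence, since a rise in βEedKO islets was part of the choice.

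Signalling genes were common in L. In 5 lists (Wnt, TGF-β and BMP, Hedgehog, FGF, Notch) 76 of 183 genes (41.5%) start in L, and 13 of 71 tested (18.3%) rose. The share was 14.2% of all L genes tested, 20.4% of L genes between bivalent or Polycomb states and 4.58% of all genes tested. By list the rises were 3 of 23 for Wnt and Frizzled, 6 of 21 for TGF-β and BMP, 1 of 11 for Hedgehog, 2 of 10 for FGF and 1 of 6 for Notch, and 0 of the 71 fell (edgeR, Benjamini-Hochberg; 1 at an unadjusted p under 0.05, and 1 by DESeq2). Bmp2, a BMP ligand, read 0.218, 0.226 and 0.387 CPM in wild type and 2.82 and 10.3 in βEedKO (log2 4.42). Fst, follistatin, which binds activins, read 0.872, 0.150 and 0.774 CPM and 26.9 and 15.7 (log2 5.19). Wnt5a, a ligand of non-canonical Wnt signalling, read 0.218, 0.527 and 0.619 CPM and 3.27 and 9.45 (log2 3.63). Gli1, the Hedgehog-responsive transcription factor, read 0.436, 0.451 and 0.0774 CPM and 3.35 and 3.96 (log2 3.49). Both βEedKO libraries were above all wild-type libraries in these 4 genes, by unlike amounts in Bmp2 and Wnt5a, and with the replicate block Fst and Gli1 were not called.

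Lists of guidance, neurotransmitter and channel genes, not all of them particular to neurons, were counted next. Beside them, 4.58% of all genes tested and 14.2% of L genes tested were called higher. Among L genes between bivalent or Polycomb states it was 20.4%. Ephrins, semaphorins, netrins and Slits counted 10 of 25 tested that rose, with the repulsive guidance cue Slit1 at 0, 0.0752 and 0.387 CPM in wild type and 16.6 and 25.7 in βEedKO. Of the neurotransmitter genes 8 of 25 rose, with Grik3, a kainate receptor subunit, at 3.27, 0.451 and 1.01 CPM and 74.3 and 70.8. Of the voltage-gated and potassium channel genes 13 of 47 rose and 2 fell, with Kcnt1, a sodium-activated potassium channel, at 1.31, 1.66 and 1.16 CPM and 32 and 41.9. Of 4 CDK inhibitors and D cyclins that start in L 0 were called by edgeR, 1 was lower at an unadjusted p under 0.05 and 1 by DESeq2. Ccnd2 read 521, 541 and 478 CPM in wild type and 211 and 338 in βEedKO (log2 −0.96, adjusted p = 0.13, edgeR with Benjamini-Hochberg). Of 3 PRC2, PRC1 and demethylase genes in L, Epop, a PRC2 accessory subunit, rose (log2 3.70, from 0.218, 0.527 and 0.309 CPM to 3.65 and 6.66). Of the 11 duct markers 3 start in L and 2 rose beside the higher duct sum given above. These were Car2, carbonic anhydrase 2 (log2 4.60), and Sox9, a factor of duct and progenitor cells (log2 2.98). Car2 was not called with the replicate block. Sox9 read 1.53, 1.13 and 5.88 CPM in wild type and 21.1 and 26.9 in βEedKO. The paper, from data not shown, reports no reactivation of Sox9 in βEedKO. The lists of 8 mature β cell genes and 6 islet hormones, and the marker lists of β cells, acinar cells and macrophages had no member that starts in L, and of the α, δ and PP cell markers 2 start there, of which Irx2, a homeobox factor of α cells, rose (log2 2.04).

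**Figure D5:**
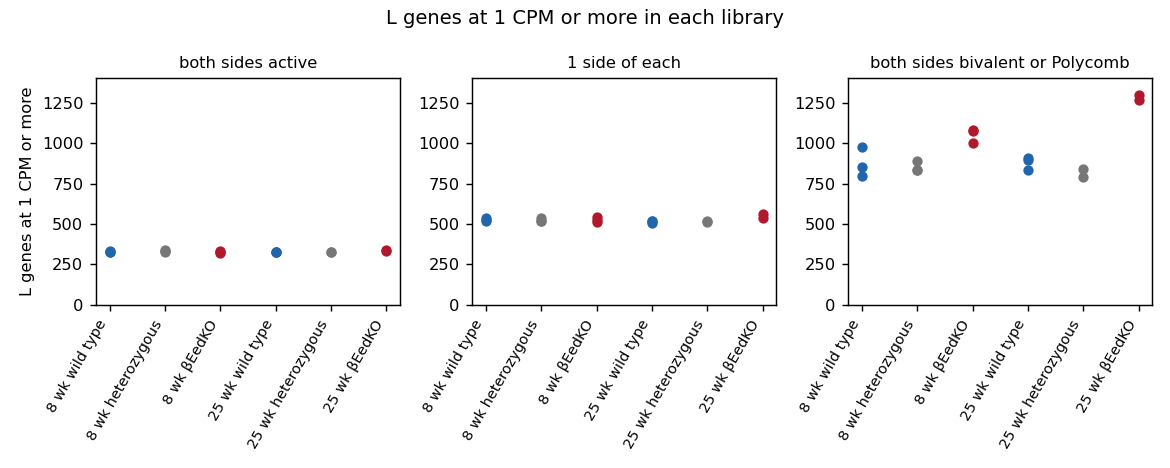
Number of L genes at 1 CPM or more in each of the 16 libraries, by the states on both sides of the L segment. Between bivalent or Polycomb states the 2 βEedKO libraries of 25 weeks hold 1265 and 1296 such genes, against 836 to 909 in wild type, while between active states every library holds 318 to 336.

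The same divide was visible library by library without a test. Between bivalent or Polycomb states, 836 to 909 L genes were at 1 CPM or more in 25-week wild type, against 1265 and 1296 in βEedKO. The 8-week ranges were 799 to 976 and 1001 to 1080. Between active states the number was 318 to 336 in all 16 libraries. Room to rise was unlike: by mean level in 8-week wild type, 80.8% of L genes between active states were already at 1 CPM or more. Between bivalent or Polycomb states it was 50.9%, so the contrast of these numbers depends partly on the starting level. After each library was thinned to 4645393 reads, L genes with at least 5 reads numbered 1687 to 1763 in wild type and 2064 and 2319 in βEedKO at 25 weeks, and 1652 to 1781 and 1855 to 2030 at 8 weeks, so that the groups did not overlap at equal total reads. Composition was not matched by this: the TMM factors of the βEedKO libraries of 25 weeks were 0.760 and 1.5. Counted gene by gene, the βEedKO libraries of 25 weeks all lay above the wild-type libraries for 1290 L genes tested (53.1%, against 24.7% of all genes tested) and below for 190 (7.82%, against 15.9%).

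At 8 weeks fewer L genes were called, and those called were all higher in βEedKO. There were 46 (1.89%), where 0.428% of all genes tested were called higher and 0.434% in either direction, and all 46 lay between bivalent or Polycomb states. The count called lower was 0, where 0.00535% of all genes tested were called lower; at an unadjusted p under 0.05 it was 25 by edgeR, and DESeq2 called 1. The median log2 fold change was 0.32 over L genes tested and 0.58 between bivalent or Polycomb states, against 0.00 over all genes. The 8-week calls were fragile: when the labels' replicate number was added as a block 0 were called, libraries of 8 weeks alone gave 5, leaving out 1 library gave 8 to 64, and DESeq2 called 169. Of the fibroblast and stellate markers 5 of 10 were higher in every βEedKO library than in every wild-type library at 8 weeks, against 6.54% of all genes tested. The markers summed to 285 to 385 CPM, against 191 to 249, and their part was not tested. Without both libraries numbered 1, those with low Cxcl10 and Rsad2, 39 were called, 24 of them among the 46.

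Igf2os, an antisense transcript at the imprinted Igf2 gene that starts in L at chr7:142658201-142659800, read 0.127, 0 and 0.159 CPM in wild type and 4.93, 4.11 and 3.55 in βEedKO at 8 weeks (log2 5.34 ± 0.70 SE, adjusted p = 0.010, edgeR with Benjamini-Hochberg); counting by strand is not stated, so its reads cannot be told apart from those of Igf2. Epop read 0.381, 1.22 and 0.424 CPM in wild type and 8.07, 16 and 18.4 in βEedKO (log2 4.37 ± 0.59). Twist1 read 0, 0.174 and 0 CPM and 4.18, 3.76 and 6.66 (log2 6.20 ± 1.02). In these 3 genes every βEedKO library lay well above every wild-type library, including the replicates 1 in which Cxcl10 was low. Pou4f1, a POU-domain factor of sensory neurons, read 0, 0 and 0.0530 CPM and 1.99, 1.81 and 3.89 (log2 6.57 ± 1.11). Slc17a7, with no wild-type read, reached 0.949, 1.71 and 0.952 CPM, at least 21.4-fold higher. Mir124a-1hg, the host transcript of the neuronal miR-124, read 0.254, 0 and 0.0530 CPM and 5.55, 2.01 and 2.16 (log2 4.94 ± 0.81). Gm10419 and Gm42517, which start on opposite strands in the same L segment (chr5:108366801-108368200), and Gm28050 completed the 8 largest rises, at log2 6.37, 5.34 and 5.63, and reads of the first pair cannot be told apart by strand.

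The genes called at 8 weeks were largely among those called later. Of the 46, 34 (73.9%) were also called higher at 25 weeks, which is 9.88% of the 344; the 46 had a median log2 fold change of 2.92 at 25 weeks, and the 344 had one of 1.12 at 8 weeks. Of all L genes tested, 14.2% were called higher at 25 weeks. The ages have their own wild-type libraries but shared 1 fit, 1 filter and its estimate of spread, so the calls of the 2 ages are not independent. With libraries of 8 weeks alone fewer L genes were called at 8 weeks, as given above, and the overlap over all genes called was not counted. Grik3, for example, read 1.71, 1.05 and 0.212 CPM in wild type and 32, 15.8 and 13.8 in βEedKO at 8 weeks, and Kcnt1, Foxf1, Foxf2 and Gdf10, a BMP-family ligand, were likewise called at both ages (log2 2.94, 2.32, 4.53 and 2.98 at 8 weeks). By family, 3 forkhead genes, 3 homeobox genes and 1 basic helix-loop-helix gene were called at 8 weeks. That was 7 of 63 tested over the 9 transcription factor lists and 1 of 71 over the 5 signalling lists. Of L genes tested 1.89% were called higher at 8 weeks, and of all genes tested 0.428%.

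The knockout effect differed between the ages for 8 L genes (0.198% of all genes tested were called for this difference), 7 with a larger value at 25 weeks (0.091% of all genes tested) and 1 with a lower one (0.107%). By the paper's account βEedKO mice were diabetic at 25 weeks and not at 8 weeks, and the part of this was not tested. Nnat, neuronatin, an imprinted gene of β cells and neurons that starts in an L segment between F and F, both active (chr2:157559801-157561200), read 28.1, 29.3 and 26.3 CPM in wild type against 391 and 255 in βEedKO at 25 weeks, and 25.3, 28 and 25.5 against 33.6, 36.2 and 47.3 at 8 weeks (difference of log2 fold changes 2.91 ± 0.33 SE, adjusted p = 0.0058, edgeR with Benjamini-Hochberg). Kit, the stem cell factor receptor, read 2.83, 5.27 and 6.03 CPM against 65.1 and 63.9 at 25 weeks, and 11.2, 6.80 and 8.37 against 19.9, 14.2 and 9.86 at 8 weeks (2.94 ± 0.47). AW551984 read 2.83, 6.32 and 5.03 CPM against 90.9 and 143 at 25 weeks, and 8.75, 13.1 and 13.4 against 11.8, 17.3 and 14.7 at 8 weeks (4.22 ± 0.47). At 25 weeks βEedKO stood clear of wild type for these 3 genes, and at 8 weeks the groups overlapped for Kit and AW551984 and not for Nnat. Slit1 (6.03 ± 0.97) and Thsd7a (4.49 ± 0.72) completed the 5 largest differences. Rnf182 was the gene with a lower value (−2.42 ± 0.37): its 8-week levels, 9.77, 7.85 and 6.99 CPM in wild type and 8.02, 8.63 and 8.91 in βEedKO, overlapped. With the replicate block 0 of the 8 were called.

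In heterozygous islets no L gene was called at either age by edgeR with Benjamini-Hochberg adjustment, where 0% of all 18828 genes tested were called. At an unadjusted p under 0.05, 164 L genes were higher and 225 lower at 8 weeks (15.9%, against 14.6% of all genes tested), and 17 and 34 at 25 weeks (2.09%, against 1.12%). DESeq2 called 68 L genes at 8 weeks, 13 higher and 55 lower, and 0 at 25 weeks. All 3 heterozygous libraries of 8 weeks had low Cxcl10 (6.88 to 9.85 CPM) where 2 of the 3 wild-type libraries were high, and without wild-type replicate 1 edgeR called 78. Of the genes that rose in βEedKO, Zic2 had no read in any of the 5 heterozygous libraries, and Grik3 read 0.557, 0.577 and 1.10 CPM at 8 weeks and 0.817 and 0.292 at 25 weeks. Twist1 read 0.209, 1.91 and 0.0689 CPM in heterozygous islets at 8 weeks, so that replicate 2 exceeded the 8-week wild-type libraries, which reached 0.174. The fibroblast and stellate markers summed to 469 CPM in that heterozygous library, against 135 and 165 in replicates 1 and 3, and their part was not tested.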

How the data were processed

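Chromatin segments and RNA-seq counts were taken as deposited. The authors segmented GRCm38 with EpicSeg on ChIP-seq and DNA methylation of wild-type islets in bins of 200 bp (autosomes), with replicates averaged. The counts are whole reads per gene that the authors obtained with TopHat2 2.0.13 and featureCounts; the submitters' notes list Subread 1.4.6 and 1.5.0-p1 without a role. Strand use in counting is not given in the sources used here. Start sites came from GENCODE vM21 on GRCm38, a later release than the authors', matched by gene identifier without version. All 16 count columns were used, and 0 were left over. The range of depth is given with the results. Floors cover counting error only, whereas the SE values also carry the estimated spread between libraries.

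Wild-type and βEedKO libraries (11) were fitted with edgeR 4.0.16 (R 4.3.3, limma 3.58.1): TMM factors, filterByExpr by group, a quasi-likelihood test on a model of 4 group means, and Benjamini-Hochberg adjustment over the 18685 genes tested, with a threshold of 0.05. Heterozygous libraries entered a fit of 6 groups (16 libraries, 18828 genes tested). CPM used TMM factors of all 16 libraries. Segments were handled with Python 3.11.15, pandas 2.3.3, numpy 2.4.6 and pysam 0.24.0, and figures drawn with matplotlib 3.10.9. DESeq2 1.42.0 was an alternative. Scripts were tested on simulated data. Libraries of a group differed beyond sampling noise, and none was merged. Whether replicates are separate litters is not stated, so p-values measure the spread between these libraries.

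Members and lists were chosen with earlier results of these data known. The genes named are the 10 largest rises and 8 largest falls at 25 weeks and the 8 largest rises at 8 weeks by log2 fold change, among those called, with a group mean of at least 1 CPM and no overlap between groups; up to 4 called members of each list; the 5 L genes highest in wild type; those at the 5 widest L segments; and the 5 largest differences between ages. Sequences follow the same rule. Splits by width and upstream or downstream state, thinning, and the union of lists were chosen after seeing the data. Replicate numbers were checked for pairing: deviations of same-numbered wild-type and βEedKO libraries correlated at 0.457 and 0.163 at 8 weeks and at 0.176 and 0.255 at 25 weeks, but other 8-week pairs reached 0.450 and 0.329, and the labels do not say what a number marks.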

Additional observations from a re-analysis of the deposited data

Results flagged for a closer look

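The difference between the knockout effects at 25 and 8 weeks passed the test (edgeR quasi-likelihood, Benjamini-Hochberg) for 6 of the L genes named. On the log2 scale the effect at 25 weeks minus that at 8 weeks was 6.03 for Slit1, 4.49 for Thsd7a, 4.22 for AW551984, 2.94 for Kit and 2.91 for Nnat. For Rnf182 it was −2.42. With library sizes alone 2 of the 6 remained called and with the replicate block 0, while DESeq2 called all 6.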

How the results depend on the processing

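For L genes higher at 25 weeks (344), DESeq2 called 548, a gene body in L gave 21, a term for the 4 libraries of 8 weeks with high Cxcl10 and Rsad2 gave 606, and leaving out both libraries numbered 1 at 8 weeks gave 624; leaving out each library gave 110 to 425. For L genes lower at 25 weeks (40) the same settings gave 65, 2, 74 and 67, library size alone 7, and L within 200 bp of the start 81; leaving out each library gave 6 to 52 (6 and 12 without βEedKO replicates 2 and 3, 15 and 16 without wild-type replicates 3 and 4). For L genes higher at 8 weeks (46), no filter beyond 1 read gave 70, DESeq2 169, libraries of 1 age alone 5, a gene body in L 2 and the term 98; leaving out each library gave 8 to 64, with 19, 15 and 8 without wild-type replicates 1, 3 and 4, 18 and 14 without βEedKO replicates 4 and 5, and 21 and 24 without the 25-week βEedKO replicates 2 and 3. For L genes lower at 8 weeks (0), DESeq2 called 1. For the difference between ages (8), library size alone gave 2, no filter 19, DESeq2 93, 6 groups in 1 fit 24, any transcript start 13, a gene body 1 and the term 53; leaving out each library gave 2 to 7. For heterozygous islets at 8 weeks (0), no filter gave 2 and DESeq2 68; leaving out each library gave 0 to 78 (11 without βEedKO replicate 1, 4 without wild-type replicate 2 of 25 weeks, 78 without wild-type replicate 1). The cause of these shifts was not tested. The term and the removal of both libraries were chosen after seeing the data.

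With the replicate block, L genes higher at 25 weeks numbered 246 (177 among the 344), lower 40 (30 shared), higher at 8 weeks 0 and called for the difference 0; libraries without a numbered partner drop out of that contrast. Values of uncalled genes with the other sign were 0.20 for Thsd7a and −0.019 for Slit1 at 8 weeks under the block. Leaving out each library gave −0.044 to 0.18 for Rnf182 at 8 weeks and −1.18 to 1.06 for Adamts1 at 25 weeks. Over all named genes, 52 of 3160 values had the other sign, and 0 of these were called in either fit; the gene values examined here were narrowed to those printed after that was seen. Of called named values, the block kept 41 of 65 at 25 weeks and 0 of 14 at 8 weeks, and DESeq2 63 and 14. L within 200 bp of the start gave 5485 L genes in place of 3021. With the largest state within 2 kb in place of the adjoining segment, the share of L genes with 1 of each was 12.9%, between active states 6.98% and with any other pair 17.5%.

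Depth limits genes near 0: 40 L genes tested had no wild-type read at 25 weeks. Setting them at their bound left the median log2 fold change at 0.94. Since 40 of 2430 values can hardly move a median, this does not show how depth bears on the result.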
